A study of Mus musculus with 6 samples.

Results

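Pleiotrophin (*Ptn*) and midkine (*Mdk*) were described with 4 of the receptors that bind them, the phosphatase *Ptprz1*, nucleolin (*Ncl*) and the syndecans *Sdc1* and *Sdc4*, in the uterus of CD-1 mice. These 6 genes were taken by name, and all 6 were among the 24077 genes of the single-cell table and the 30828 genes of the spatial tables. They were picked with their levels in these same libraries and sections already known, so the levels and the differences between treatments are given as descriptions, without p-values. Female mice had been injected under the skin on neonatal days 1 to 5 with diethylstilbestrol (DES, a synthetic estrogen) at 1 mg/kg/day or with corn oil alone (CO), and uteri were collected at 12 months. Mice given DES in this way develop uterine adenocarcinoma. The CO mice had been collected in estrus and the DES mice were in persistent estrus at that time. The dissociated cells formed 1 CO and 1 DES library, each from pooled mice, and the spatial data (10x Visium) were 2 CO and 2 DES sections, A and B, each from 1 mouse. The study reported a large tissue fold in CO B and poorly resolved clusters in DES B. It based most of its spatial analyses on CO A and DES A, whereas all 4 sections are used here with equal weight.

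Pleiotrophin and midkine are the only members of a family of small secreted cytokines that bind heparin and other sulfated sugar chains. PTPRZ1 is a transmembrane tyrosine phosphatase that carries chondroitin sulfate. Binding of pleiotrophin brings its molecules together and silences the phosphatase, so that substrates such as β-catenin and Fyn stay phosphorylated. Syndecans are transmembrane proteoglycans whose heparan sulfate chains hold such ligands at the cell surface, and nucleolin, an abundant protein of the nucleolus, can also bind both cytokines at the surface. The family is best known from neural development, wound repair and tumors. On the mouse genome (build GRCm38), *Ptn* lay at chr6:36714929-36810220 and *Mdk* at chr2:91929805-91932297. *Ptprz1* lay at chr6:22875502-23052916, *Ncl* at chr1:86344719-86359400, *Sdc1* at chr12:8771323-8793715 and *Sdc4* at chr2:164424247-164443887. All are protein-coding, and of them only *Ncl* overlapped other annotated genes on its strand, among them the small nucleolar RNAs *Snora75* and *Snord82* in its introns.

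The unit in both assays was the UMI (unique molecular identifier, 1 captured RNA molecule). The CO library held 32387 cells with 353460067 UMIs and the DES library 16312 cells with 288919190 UMIs. A cell type had been assigned to 12253 CO and 9701 DES cells. Epithelial cells numbered 2583 and 5255, and mesothelial cells 6866 and 3837. The DES library held 1 stromal cell, 5 endothelial cells and no labeled myocytes or pericytes, so no DES level is given for these types. A total of 180 cell barcodes occurred in both libraries, and leaving them out moved no level of a member in a cell type by as much as 10%. The 4 sections held 1357 to 1834 spots and 9117099 to 12506177 UMIs. With 1 library per treatment there was no test between the single-cell libraries. Levels there are given as CPM (UMIs of the gene per 1000000 UMIs) summed over cells, with exact Poisson 95% intervals, and ratios and shares have exact binomial 95% intervals. All of these cover counting error only. Because UMIs mark 3′ ends, levels are compared within a gene and not between genes. The labels were checked against marker genes before use. The summed CPM of *Epcam*, *Cdh1*, *Krt8* and *Krt18* was 3516 in CO and 2469 in DES epithelial cells and at most 956 in any other cell type. Basal cells, 608 DES cells of the integrated clusters 8 and 11, summed to 5528 CPM for *Krt14*, *Trp63* and *Krt5*, against 1 CPM in CO epithelium, which had no cell in those clusters.

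*Ptn* was the member whose epithelial level differed most between the libraries at a level above 50 CPM. It stood at 77.6 CPM in CO epithelial cells (95% interval 75.7 to 79.6; 6116 UMIs) and at 494 CPM in DES epithelial cells (491 to 498; 87095 UMIs), a ratio of 6.37 (6.21 to 6.54). Of the 3105 genes at 50 CPM or more in epithelial cells of either library, 2.19% had a DES over CO ratio above 3 and 4.64% a ratio below 1/3. The median ratio of these genes was 0.981, and 27 had a higher ratio than *Ptn*. *Ptn* was the only one of the 3 members at that level to pass a ratio of 3, the others being *Ncl* and *Sdc4*. To compare shares of cells at equal depth, each cell was thinned to 3000 UMIs. A *Ptn* UMI was then seen in 18.7% of CO epithelial cells (17.2 to 20.2) and 64.7% of DES epithelial cells (63.4 to 66.0), and without thinning in 62.9% and 93.6%. Lymphocytes, which should lack *Ptn*, gave 5.81% in CO (3.48 to 9.02) and 8.92% in DES (5.46 to 13.6) at median depths of 4033 and 5599 UMIs, against 23458 and 21900 in epithelial cells before thinning. The median DES epithelial cell held *Ptn* at 395 CPM and the median CO epithelial cell at 43 CPM.

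In CO epithelium, high *Ptn* was a feature of a single cluster. Cluster 12, the 71 cells that the study took as epithelial stem cells, stood at 523 CPM (490 to 558), and the remaining CO clusters lay between 8.98 and 145 CPM. The level in cluster 12 was 7.77 times that in the other CO epithelial cells (7.23 to 8.33). Next came cluster 4, the cycling luminal progenitors, at 145 CPM (136 to 154), and cluster 2, a luminal cluster, at 89.8 CPM (84.2 to 95.7). The study had already shown *Ptn*, from these same cells, as a gene of the stem cell and luminal progenitor lineage, highest in the stem cells. The gland clusters 3, 8, 13 and 14 were low, at 11.5, 12.3, 8.98 and 18.7 CPM, with overlapping intervals. Summed over luminal clusters the level was 74.4 CPM, 6.12 times the 12.2 CPM of the gland clusters (5.05 to 7.48). After thinning, a *Ptn* UMI was seen in 74.6% of cluster 12 cells, 19.8% of luminal cells and 3.61% of gland cells. The gland share lay below that of CO lymphocytes given above, and the gland level below their 20.02 CPM (14.6 to 26.8). The gland values are therefore read as background, and the ratio of luminal to gland clusters rests on a background level.

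In DES epithelium every cluster had a higher level than each CO cluster other than cluster 12. The lowest, DES cluster 1, held 152 CPM (147 to 157), which did not differ beyond counting error from CO cluster 4, and the highest, cluster 14, held 1822 CPM (67 cells, 4416 UMIs). The level in cluster 14 was 3.75 times that in the other DES clusters (3.63 to 3.86). In cluster 5, the cancer cells of the study, the *Ptn* level lay below that of the other clusters together, at 415 CPM (401 to 428) or 0.811 times theirs. The cycling cells of cluster 6 lay at 320 CPM, 0.606 times the others. Clusters 8, 4 and 3 followed cluster 14, at 888, 795 and 787 CPM, and the last 2 did not differ beyond their counting intervals. Summed over the non-basal DES clusters, *Ptn* stood at 506 CPM, so the level of the whole non-basal DES epithelium was 0.967 times that of CO cluster 12 (0.906 to 1.03). Basal cells were lower, at 341 CPM (331 to 353), 0.675 times the non-basal cells (0.653 to 0.697). The plot of levels by epithelial cluster shows these values for *Ptn*, *Ptprz1*, *Sdc1* and *Sdc4*.

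**Figure D1:**
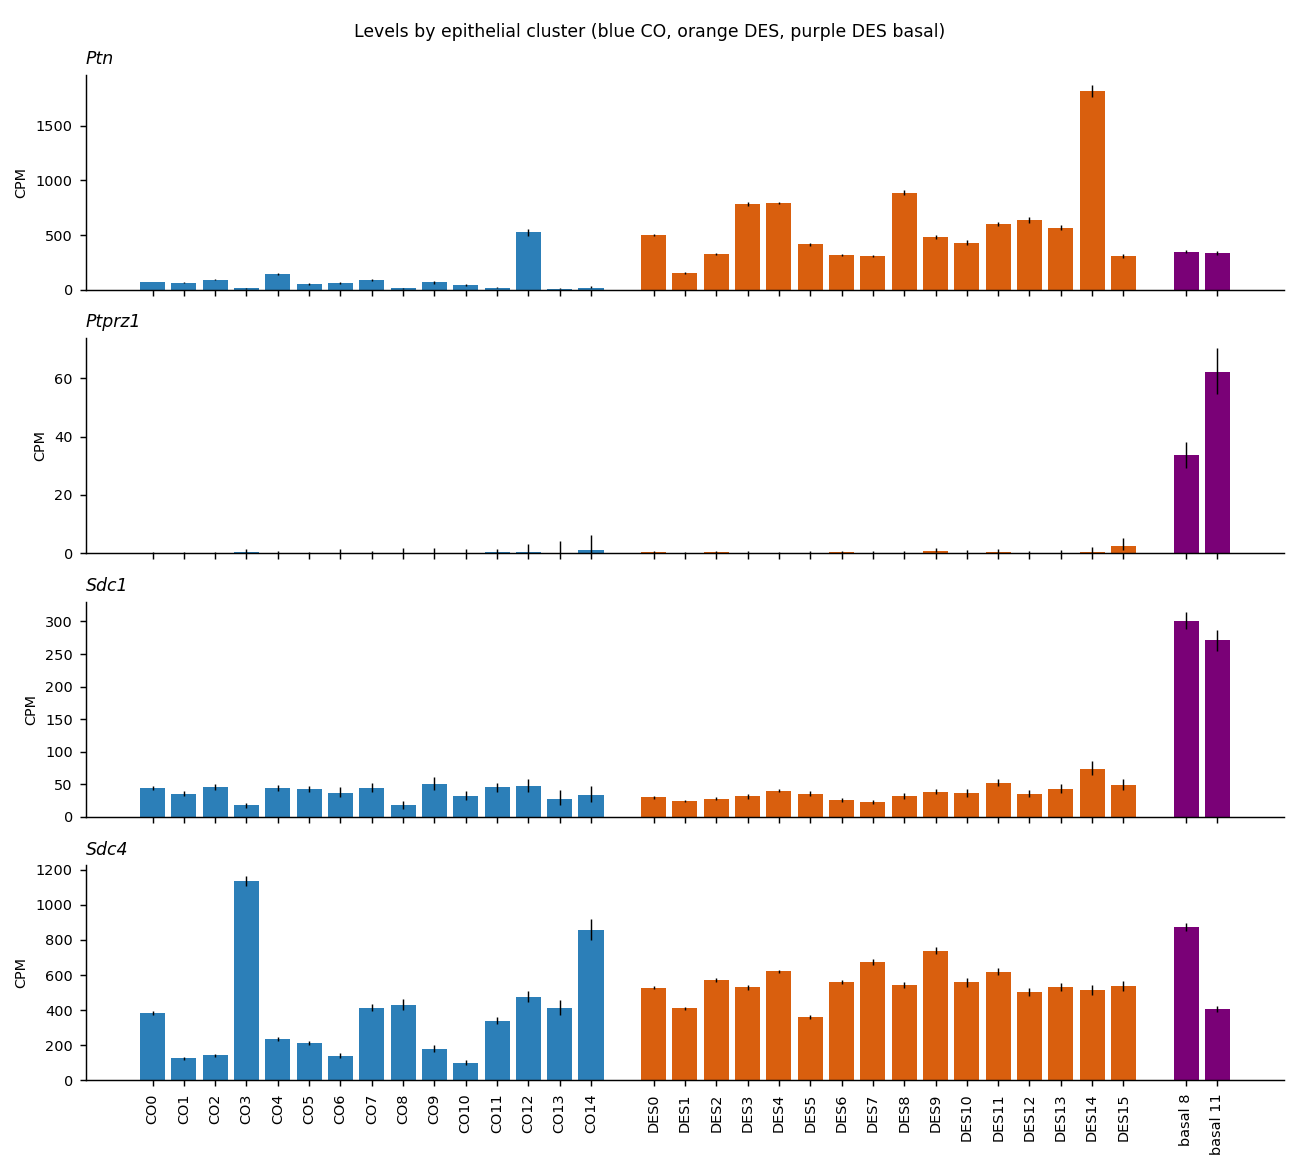
Levels of *Ptn*, *Ptprz1*, *Sdc1* and *Sdc4* (vertical axes, CPM of summed UMIs, linear and starting at 0) in each CO epithelial cluster (blue), each DES epithelial cluster (orange) and the DES basal clusters (purple); bars are levels and lines are exact Poisson 95% intervals. *Ptn* stood at 523 CPM in CO cluster 12 and between 152 and 1822 CPM in the DES clusters, *Ptprz1* and *Sdc1* were highest in the basal clusters, and *Sdc4* was highest in CO cluster 3 at 1136 CPM.

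Outside the epithelium, *Ptn* was highest in CO myocytes, at 1140 CPM, followed by the 22 *Stmn1*-high cells at 357 CPM, the cells named for *Ctla2a* at 283 CPM and endothelial cells at 192 CPM. The intervals of the *Stmn1*-high cells (302 to 418) and the *Ctla2a* cells (263 to 303) just overlapped. Mesothelial cells held 132 CPM in CO and 104 CPM in DES, a ratio of 0.789, so the higher *Ptn* of the DES library was not shared by its second large cell type. CO stromal cells held 19.4 CPM, which did not differ beyond counting error from the 20.02 CPM of CO lymphocytes. DES lymphocytes held 63.1 CPM, 3.15 times the level of CO lymphocytes (2.19 to 4.60). Among annotated cells, epithelium made up 54.2% of the DES library and held 92.6% of its *Ptn* UMIs. In the CO library mesothelial cells held 54.5%, epithelial cells 30.4%, and myocytes, 0.7% of the cells, 6.2%.

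**Figure D2:**
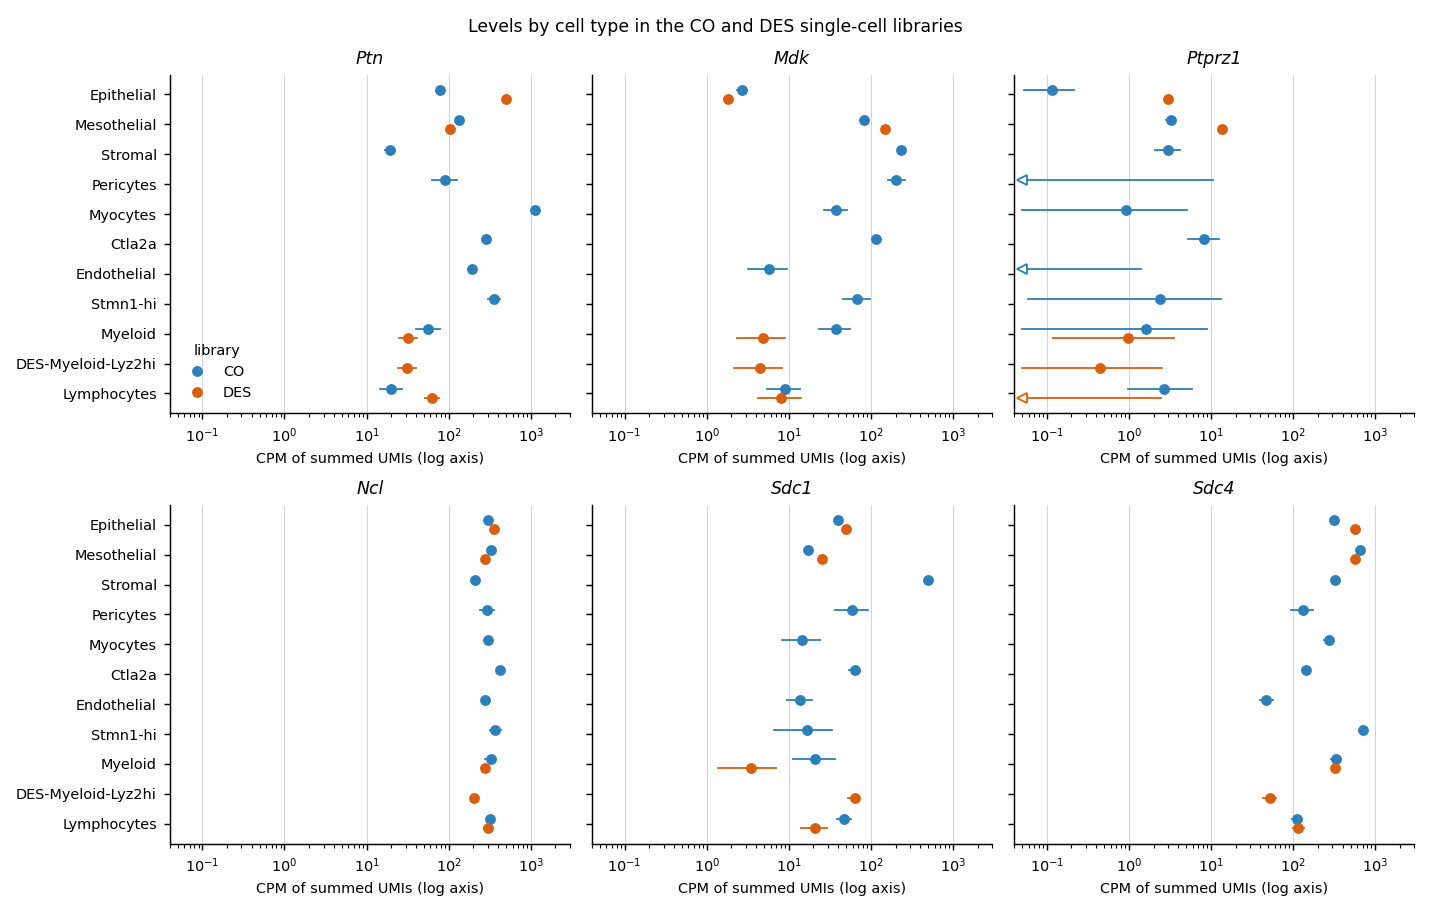
Levels of the 6 genes (horizontal log axes, CPM of summed UMIs) by cell type (rows) in the CO library (blue) and the DES library (orange), with exact Poisson 95% intervals; open triangles at the left edge mark types with no UMI, with a line up to the upper bound of the interval. *Ptn* differed between libraries in epithelium (77.6 and 494 CPM), *Mdk* was highest in CO stromal cells (235 CPM) and lowest in epithelium, and *Ncl* lay between 203 and 422 CPM in all types shown.

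The sections came from other mice than the cell libraries, and there the direction for *Ptn* depended on the tissue compartment. A Visium spot covers several cells, so in all spot values fewer cells of a type and less RNA per cell cannot be told apart. Over whole sections, *Ptn* stood at 99.2 and 114 CPM in CO A and CO B and at 93.8 and 84.6 CPM in DES A and DES B. The DES sections were slightly below the CO sections, without overlap (log2 fold change -0.47 ± 0.16, SE, edgeR). Log2 fold changes by edgeR include its scaling between sections (TMM), so they can differ from the ratio of the printed CPM. The SE of each, here and below, was derived from the F statistic of edgeR's test. It is the absolute log2 fold change divided by the square root of F, and so restates that test. In the 15% of spots of each section richest in the 4 epithelial markers, *Ptn* stood at 19.0 and 6.79 CPM in CO (55 and 18 UMIs) and at 102 and 69.1 CPM in DES (163 and 115 UMIs). The group means there were 12.9 ± 8.64 and 85.3 ± 23.0 CPM (SD, n = 2), and the log2 fold change was 2.40 ± 0.49 (SE). It was 3.35 without CO A and 1.84 without CO B. Both DES sections lay above both CO sections by more than the spread within either group. In the 15% of spots richest in muscle markers the order was the opposite, 332 and 491 CPM in CO and 196 and 132 CPM in DES. These spots held 48.3% and 63.7% of all *Ptn* UMIs of the CO sections, but 15.2% and 14.1% in the DES sections. Of the UMIs of all genes they held 1807225 of 12506177 in CO A and 1634907 of 11032957 in CO B. In DES they held fewer, 662517 of 9117099 in DES A and 891790 of 9880021 in DES B. *Ptn* in the muscle-rich spots was above the whole-section level in each section, DES included. The muscle markers *Acta2*, *Myh11*, *Des* and *Cnn1* also differed. Summed over the whole section they reached 10737 and 11676 CPM in CO and 2811 and 3178 CPM in DES, and within the muscle-rich spots 39971, 41662, 24685 and 20712 CPM. Their part in the *Ptn* difference was not tested. Basal markers in the epithelium-rich spots, given below with *Sdc4*, were higher in DES, and their part in the *Ptn* difference was not tested either.

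Spot by spot, *Ptn* went with muscle markers in CO more than in DES. Pearson's r of log2(CPM + 1) between *Ptn* and the muscle markers was 0.40 in CO A (1433 spots) and 0.42 in CO B (1834 spots), and -0.06 in DES A (1575 spots) and -0.08 in DES B (1357 spots). With the epithelial markers r was -0.38 and -0.30 in CO and 0.13 and 0.14 in DES. Spots of a section share its library and their depth varies, so these are descriptions. By spot cluster, *Ptn* ranged from 5.41 to 452 CPM in CO A and from 0 to 602 CPM in CO B, and it was narrower in the DES sections, 56.1 to 224 CPM in DES A and 41.3 to 169 CPM in DES B. In each of the 4 sections the cluster with the highest *Ptn* was the one with the highest muscle markers.

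The clusters that the study took as stroma gave *Ptn* at 8.95 and 10.8 CPM in CO and at 56.1 and 46.2 CPM in DES (log2 fold change 2.29 ± 0.42). These rest on few molecules, 5, 10, 57 and 16 UMIs in CO A, CO B, DES A and DES B. The DES stromal clusters also carried basal epithelial markers, summing to 7058 and 1998 CPM against 0 and 90 CPM in CO, and muscle markers at 2562 and 7829 CPM against 743 and 633 CPM. Whether these account for the difference was not tested. In CO B the stromal cluster held the stromal markers at 875 CPM, no more than the 921 CPM of the section as a whole. When stroma was instead taken as the 15% of spots richest in *Dpt*, *Vcan*, *Col6a3* and *Foxl2*, the direction reversed. *Ptn* was then 111 and 285 CPM in CO and 78.0 and 59.2 CPM in DES (log2 fold change -1.77 ± 0.45). Those spots held muscle markers at 19730 and 27212 CPM in CO and at 5561 and 6331 CPM in DES. *Ptn* in stroma therefore had no direction that held under both choices of spots.

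*Mdk*, the other ligand, was a gene of stroma and mesothelium and was close to absent from epithelium. CO stromal cells held 235 CPM (226 to 244), CO pericytes 204 CPM (160 to 257) and the *Ctla2a* cells 116 CPM, and the first 2 did not differ beyond their intervals. Epithelial cells held 2.70 CPM in CO (213 UMIs) and 1.81 CPM in DES (318 UMIs), so that the level in CO stromal cells was 86.9 times that in CO epithelial cells (75.6 to 100). No epithelial cluster of either library passed 5.05 CPM. After thinning, an *Mdk* UMI was seen in 47.4% of CO stromal cells but in 0.70% of CO and 0.71% of DES epithelial cells, below the 2.90% and 0.94% of lymphocytes, and the epithelial share is therefore read as background. Mesothelial cells held *Mdk* at 81.7 CPM in CO and 149 CPM in DES, a ratio of 1.82 (1.77 to 1.88), with a UMI in 20.2% and 33.4% of thinned cells. Myeloid cells went the other way on few molecules, 37.3 CPM in CO (23 UMIs) and 4.90 CPM in DES (10 UMIs), a ratio of 0.131 (0.056 to 0.287). In the DES library mesothelial cells held 96.5% of the *Mdk* UMIs of annotated cells. In CO they held 66.0% and stromal cells 26.8%.

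The sections gave *Mdk* in the stromal clusters at 301 and 276 CPM in CO and 458 and 491 CPM in DES, with both DES sections above both CO sections (log2 fold change 0.68 ± 0.29). In the spots chosen by stromal markers it was 193 and 182 CPM in CO and 421 and 340 CPM in DES, the same direction. Markers of other cells in both sets of spots, given above for *Ptn*, also differed between treatments. Their part in the *Mdk* difference was not tested. Whole sections overlapped, at 93.6 and 134 CPM in CO and 169 and 126 CPM in DES (0.17 ± 0.24). In epithelium-rich spots *Mdk* was lower than in the whole section in all 4 sections, at 34.2 and 39.2 CPM in CO and 92.2 and 57.1 CPM in DES (0.72 ± 0.28). Spot by spot, r with the stromal markers was between 0.16 and 0.28 in the 4 sections.

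The ligands were thus highest in different cells. Among annotated cells of the DES library, *Ptn* UMIs were mainly epithelial and *Mdk* UMIs mainly mesothelial. That library held 1 stromal cell and no labeled myocytes or pericytes, so these shares cover only the types captured. In the DES sections, epithelium-rich spots held 19.1% and 13.8% of the *Ptn* UMIs, beside 1604745 of 9117099 and 1664904 of 9880021 UMIs of all genes. *Ptn* in these spots was 102 and 69.1 CPM, against 93.8 and 84.6 CPM over the whole DES sections. *Mdk* reached 458 and 491 CPM in the stromal clusters of DES. A UMI of each ligand in the same thinned cell was seen in 0.519% of DES epithelial cells and 9.73% of DES mesothelial cells. The products of the separate shares were 0.460% and 8.56%.

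*Ptprz1*, the phosphatase receptor, was found within the epithelium mainly in the DES basal cells. CO epithelial cells gave 9 UMIs in all (0.114 CPM) and DES epithelial cells 529 UMIs (3.003 CPM), a ratio of 26.3 (13.7 to 57.8). Of the DES UMIs, 478 came from the 608 basal cells, which stood at 44.3 CPM (40.4 to 48.5), and 48 from the 4608 non-basal cells, at 0.293 CPM. The highest non-basal cluster, cluster 15, held 2.48 CPM (0.998 to 5.12) from 7 UMIs. The basal level was 151 times the non-basal level (112 to 208). Integrated cluster 11 was higher than cluster 8, at 62.1 CPM (54.7 to 70.3) against 33.6 CPM (29.4 to 38.3). When basal cells were instead the 483 DES epithelial cells with more than 1 UMI each of *Krt14* and *Trp63*, the level was 42.4 CPM. With basal cells left out, the ratio of DES to CO epithelium was 2.56 (1.24 to 5.94). Both of its levels lay below the 2.67 CPM of CO lymphocytes (6 UMIs), while DES lymphocytes gave no UMI. These levels were not told apart from background, so no difference between non-basal cells is read from this ratio. After thinning, a *Ptprz1* UMI was seen in 12.4% of basal cells (9.88 to 15.3), 0.07% of non-basal DES cells and 0 of 2562 CO epithelial cells, which at that depth allows a share of up to 0.14% of cells with a UMI. Without thinning the shares were 48.7% of basal cells and 0.348% of CO epithelial cells (9 of 2583).

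Mesothelial cells were the other main source of *Ptprz1*. They held 3.24 CPM in CO (269 UMIs) and 13.6 CPM in DES (879 UMIs), a ratio of 4.20 (3.66 to 4.84), with a UMI in 0.79% and 3.70% of thinned cells. CO lymphocytes gave 0.32% and DES lymphocytes 0. The *Ctla2a* cells held 8.24 CPM from 23 UMIs and CO stromal cells 2.98 CPM from 35 UMIs, and no UMI was seen in 341 CO endothelial cells or in 75 pericytes. Of the DES *Ptprz1* UMIs in annotated cells, 62.3% were mesothelial and 33.9% basal, although basal cells were 6.3% of the cells. In the sections *Ptprz1* was sparse, with a UMI in 0.140% and 2.67% of CO spots and 5.90% and 6.48% of DES spots. Whole sections gave 0.16 and 4.80 CPM in CO (2 and 53 UMIs) and 11.3 and 10.1 CPM in DES (103 and 100 UMIs). Both DES sections were the higher, and the CO sections differed widely from each other (log2 fold change 1.93 ± 1.13, and 0.97 without CO A and 5.74 without CO B). In epithelium-rich spots the values were 0 and 1.13 CPM in CO (0 and 3 UMIs) and 9.35 and 12.0 CPM in DES (15 and 20 UMIs). The log2 fold change there was 3.88 ± 0.88, and 2.89 without CO A and 7.33 without CO B. Values were higher in the spots richest in basal markers, at 0.455 and 3.65 CPM in CO (1 and 8 UMIs) and 16.2 and 15.4 CPM in DES (28 and 23 UMIs). The DES intervals there, 10.8 to 23.5 and 9.75 to 23.1 CPM, overlapped those of the epithelium-rich spots, 5.23 to 15.4 and 7.34 to 18.6 CPM. Muscle-rich spots of DES held 10.6 and 8.97 CPM (7 and 8 UMIs). Spot by spot, r of *Ptprz1* with the basal markers was 0.08 and 0.09 in DES. The stromal clusters went the other way between CO B, at 21.7 CPM from 20 UMIs, and the DES sections, at 9.85 and 5.77 CPM, and CO A had no UMI there.

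*Sdc1*, a syndecan of epithelial and plasma cells, was at its highest levels in CO stroma and in the DES basal cells. CO stroma held 490 CPM (477 to 503), 12.2 times the level in CO epithelial cells (11.7 to 12.7), with a UMI in 64.0% of thinned cells. The DES basal cells held 290 CPM (280 to 300), 8.74 times the 33.1 CPM of non-basal DES cells (8.36 to 9.14), with a UMI in 56.9% of thinned cells against 10.0% of non-basal DES cells and 10.4% of CO epithelial cells. Lymphocytes gave 6.13% in CO and 4.23% in DES, and held the plasma cell markers *Jchain* and *Mzb1* at 21030 and 1773 CPM. By molecules the spread was wider. Of the *Sdc1* UMIs in annotated CO cells, 53.7% were stromal, 29.5% epithelial and 13.3% mesothelial. In DES 82.8% were epithelial, with 29.8% of all from basal cells, and 15.4% were mesothelial. The basal cells decided the direction of the epithelial comparison. With them, the epithelial level was 40.2 CPM in CO and 49.3 CPM in DES, a ratio of 1.23 (1.18 to 1.28), and without them the ratio was 0.825 (0.790 to 0.862). Among the non-basal DES clusters, cluster 14 was highest at 74.3 CPM and cluster 7 lowest at 22.6 CPM. CO clusters lay between 17.6 and 50.3 CPM, with gland clusters 3 and 8 at the lower end, at 17.6 and 17.8 CPM.

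In the sections *Sdc1* was higher in DES over the whole section and in spots chosen for epithelium. Whole sections gave 215 and 90.1 CPM in CO and 545 and 426 CPM in DES (log2 fold change 1.45 ± 0.45, and 2.24 without CO A and 0.94 without CO B). Epithelium-rich spots gave 184 and 83.8 CPM in CO and 544 and 482 CPM in DES (1.63 ± 0.39, and 2.33 without CO A and 1.15 without CO B). The groups did not overlap in either set, and CO A was the higher CO section in both. The spots richest in basal markers held 873 and 731 CPM in DES, the highest of any set of spots there, and 221 and 154 CPM in CO. Muscle-rich spots were low in all sections, at 87.4, 59.3, 96.6 and 131 CPM. The stromal clusters overlapped, at 614 and 139 CPM in CO and 418 and 182 CPM in DES (-0.37 ± 0.63), and the CO sections differed there by more than the treatments did. Basal markers were also higher in DES, but between the CO sections their order was not that of *Sdc1*. Over whole sections they summed to 3 and 160 CPM in CO and 9526 and 5644 CPM in DES, and spot by spot their r with *Sdc1* was 0.07 and 0.16 in CO and 0.43 and 0.44 in DES. One CO spot cluster also showed both. Cluster 10 of CO B, 17 spots, held *Sdc1* at 549 CPM and basal markers at 6025 CPM, against at most 94.8 CPM of basal markers in every other cluster of that section. Cluster 8 of CO A held *Sdc1* at 614 CPM with basal markers at 0 CPM. Plasma cells carry *Sdc1* too, and their markers summed to 39 and 112 CPM in CO and 523 and 878 CPM in DES sections. In the basal-rich spots these plasma cell markers were at 18 and 98 CPM in CO and 31 and 104 CPM in DES. The part of basal cells and of plasma cells in the *Sdc1* difference was not tested.

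**Figure D3:**
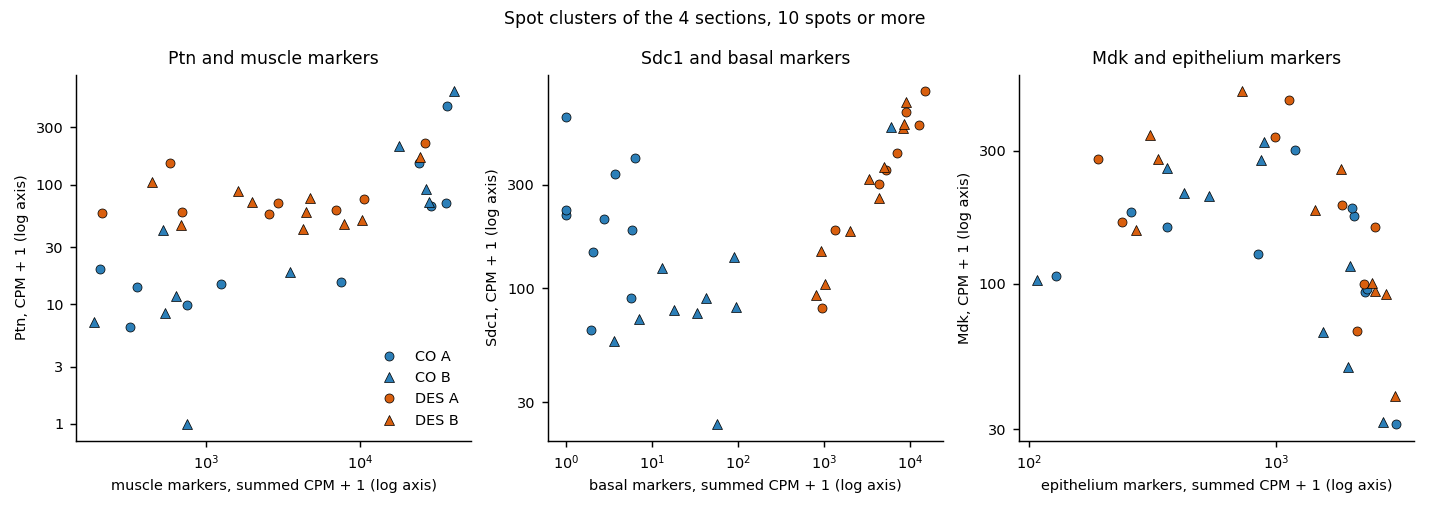
Each point is a spot cluster of 10 or more spots (blue CO, orange DES; circles A, triangles B), with a gene's CPM + 1 (vertical log axes) against the summed CPM + 1 of a marker list (horizontal log axes): *Ptn* against muscle, *Sdc1* against basal and *Mdk* against epithelial markers. The highest *Ptn* clusters, 452 and 602 CPM, are CO muscle, DES clusters rich in basal markers reach 720 to 805 CPM of *Sdc1*, and CO A clusters reach 614 CPM of *Sdc1* without basal markers.

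*Sdc4*, the more widely expressed syndecan, was measured in every cell type. In CO epithelium it was highest in 2 gland clusters, cluster 3 at 1136 CPM and the gland progenitors of cluster 14 at 856 CPM. The other gland clusters, 8 and 13, held 432 and 414 CPM, close to the luminal cluster 7 at 413 CPM and below the stem cells of cluster 12 at 478 CPM. The luminal cluster 10 was lowest at 102 CPM, and the pooled levels were 869 CPM in gland and 244 CPM in luminal clusters. In DES epithelium the spread between clusters was narrower, from 362 CPM in cluster 5 (349 to 374) to 738 CPM in cluster 9. Every DES cluster lay above the pooled CO luminal level and every non-basal one below the pooled CO gland level. Single luminal clusters were higher than DES cluster 5, namely cluster 0 at 384 CPM (375 to 393) and cluster 7 (393 to 433). Basal cells held 699 CPM, with 875 CPM in integrated cluster 8 and 407 CPM in cluster 11. Over all epithelial cells the level was 318 CPM in CO and 563 CPM in DES, a ratio of 1.77 (1.75 to 1.79), and 208 of the 3105 genes had a higher ratio. A *Sdc4* UMI was seen in 47.4% and 74.4% of thinned epithelial cells and in 23.2% and 15.96% of lymphocytes. Mesothelial cells held 655 CPM in CO and 560 CPM in DES, a ratio of 0.854. In the sections, *Sdc4* stood at 53.9 and 60.9 CPM in whole CO sections and 117 and 104 CPM in DES (log2 fold change 0.74 ± 0.16). Epithelium-rich spots gave 32.8 and 46.0 CPM in CO and 148 and 121 CPM in DES (1.47 ± 0.25). Neither set of values overlapped between treatments. Basal markers, given above for whole sections, were also higher in the epithelium-rich spots of DES, at 8191 and 6193 CPM against 5 and 100 CPM in CO. Spot by spot, r of *Sdc4* with them was 0.03 in both CO sections and 0.15 and 0.22 in DES. Their part in the *Sdc4* difference was not tested.

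*Ncl* was the most even of the members across cells. Over the cell types with at least 22 cells it lay between 203 CPM in the *Lyz2*-high myeloid cells of DES and 422 CPM in the *Ctla2a* cells, and in epithelial cells it was 300 CPM in CO and 352 CPM in DES, a ratio of 1.17 (1.15 to 1.19). Within CO epithelium the pooled gland clusters held 476 CPM and the luminal clusters 274 CPM, but the mature gland cluster 13, at 332 CPM (296 to 372), lay within the range of the luminal clusters. The gland progenitors of cluster 14 held 603 CPM (553 to 655), and the gland cluster 3 and the stem cells of cluster 12 followed at 489 and 459 CPM, with overlapping intervals. DES clusters lay between 268 and 457 CPM. In whole sections it stood at 193 and 155 CPM in CO and 239 and 201 CPM in DES (log2 fold change 0.13 ± 0.20). In epithelium-rich spots it stood at 212 and 165 CPM in CO and 242 and 209 CPM in DES (-0.04 ± 0.22), where the treatments overlapped. After TMM scaling, on which the fold change rests, the values were 239 and 182 CPM in CO and 217 and 193 CPM in DES.

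**Figure D4:**
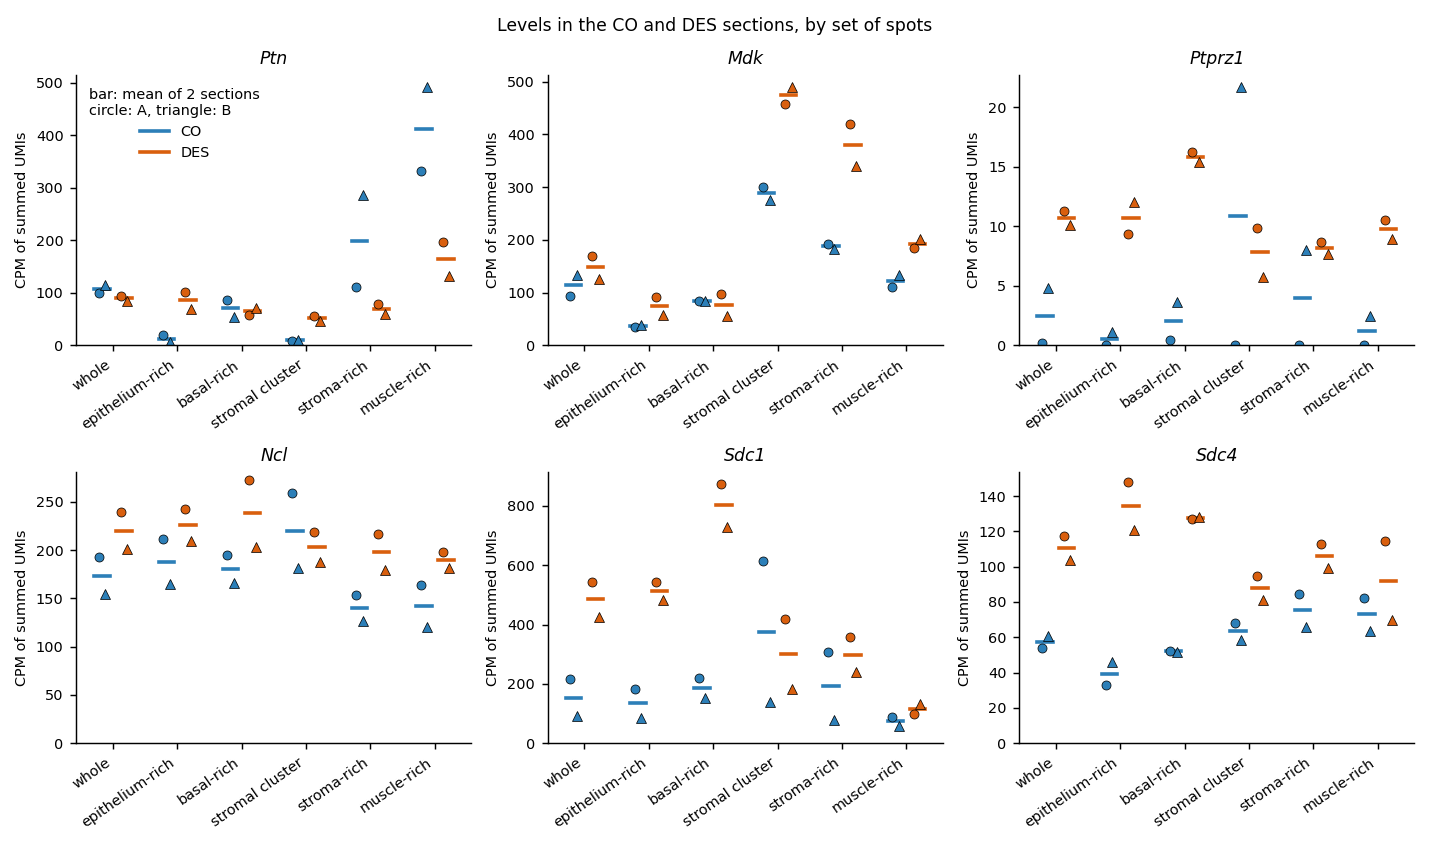
Levels of the 6 genes (vertical axes, CPM of summed UMIs, linear from 0) in 6 sets of spots (horizontal axes) of the CO sections (blue) and DES sections (orange); circles are section A, triangles section B, and horizontal bars the mean of 2 sections. *Ptn* was higher in DES in epithelium-rich spots (102 and 69.1 against 19.0 and 6.79 CPM) and lower in muscle-rich spots (196 and 132 against 332 and 491 CPM), and *Sdc1* was highest in the basal-rich spots of DES.

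Counted against all genes tested by edgeR's quasi-likelihood test at an adjusted p of 0.05, the members passed in few comparisons. In whole sections 5.30% of 14098 genes passed (2.67% higher and 2.63% lower in DES), and 0 of the 6 members did. At an unadjusted edgeR p under 0.05 were 3 members, beside 3438 of the 14098 genes. With DESeq2, 2 members passed the threshold, beside 1791 of these genes. In the stromal clusters 1.47% of 8914 genes passed (0.796% higher and 0.673% lower), and 1 of the 5 members kept by the filter on low counts did, *Ptn*, which DESeq2 did not call. *Ptn* no longer passed there without CO B, without DES A or without DES B. In epithelium-rich spots 4 of 6 members passed with DESeq2, beside 952 of 11161 genes. With edgeR 6.35% of these genes passed there (4.09% higher and 2.27% lower), and 2 of 6 members did, *Ptn* and *Sdc4*. Neither passed there without DES A, without DES B or without the filter on low counts. *Ptn* also did not with DESeq2's size factors or in the richest 10% of spots, and *Sdc4* did not without CO A or in the richest 25%. Since the members were chosen with these values known, nothing is read from these counts.

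Ligand and receptor RNAs met in the same cells about as often as their separate shares give. In thinned DES epithelial cells, *Ptn* and *Sdc4* UMIs occurred together in 49.5% of cells (product of the shares 48.2%), and in CO epithelial cells in 9.17% (8.84%). In basal cells *Ptn* and *Ptprz1* occurred together in 7.27% (7.13%) and *Ptprz1* and *Sdc1* in 8.26% (7.05%). In CO stromal cells *Mdk* and *Sdc1* occurred together in 28.9% (30.3%).

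The genes whose level followed each member most closely over cell groups were then listed, by Pearson's r of log2(CPM + 1) over 42 groups of at least 30 cells and 10742 genes. The groups share 2 libraries, so r is a description. *Snrpc*, *Cetn3* and *Snrpf* were closest to *Ptn* (r = 0.84, 0.83 and 0.83). For *Mdk* these were *Cygb*, *C1ra* and *Matn2* (each 0.97). *Nop56*, which acts in ribosome assembly in the nucleolus, and *Ppan* and *Prodh* were closest to *Ncl* (0.88, 0.84 and 0.81). *Daam1*, *Zxdc* and *Sept9* came first for *Sdc1* (0.72, 0.71 and 0.67), and *Nfix*, 2310039H08Rik and *Serf1* for *Sdc4* (0.81, 0.79 and 0.77). *Ptprz1* did not reach 20 CPM in any of these groups, so no genes are listed for it. The lists depended on the measure and the groups. By Spearman's rho, 0 of the 3 genes were shared with the list above for *Ptn*, 1 each for *Mdk* and *Sdc1*, and 2 each for *Ncl* and *Sdc4*. With the 2 basal clusters added, a choice made after seeing the data, *Col7a1*, the collagen of anchoring fibrils under stratified epithelia, was closest to *Sdc1* (0.76).

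The rest of the pathway was described in 4 lists. These lists too were chosen with earlier results of these data known. Their calls and adjusted p-values are therefore given as descriptions and not as tests of the lists. Of 17 other receptors and co-receptors, such as integrins, *Lrp1*, *Alk* and the syndecans *Sdc2* and *Sdc3*, 14 were tested in whole sections, and 2 fell in DES and none rose (edgeR, Benjamini-Hochberg), beside 2.63% of all genes that fell. *Itgb3*, the β3 integrin, stood at 51.1 and 41.1 CPM in CO and 13.3 and 12.9 CPM in DES (log2 fold change -2.03 ± 0.20, edgeR adjusted p = 0.0212). *Sdc3* stood at 94.3 and 101 CPM in CO and 42.3 and 46.0 CPM in DES (-1.35 ± 0.17, edgeR adjusted p = 0.0272). Muscle markers, given above, were also lower over whole DES sections, and their part in these falls was not tested. The median log2 fold change of the list was -0.34, beside -0.01 over all genes tested. In the stromal and epithelium-rich spots 9 were tested and 0 passed, with medians of 0.16 and -0.05 beside 0.00 and -0.02.

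Of 9 matrix proteoglycans and other matrix or membrane ligands of PTPRZ1, 5 were tested in whole sections and 1 rose, beside 2.67% of all genes. *Agrn*, the heparan sulfate proteoglycan agrin, went from 78.1 and 99.0 CPM in CO to 234 and 222 CPM in DES (1.16 ± 0.18, edgeR adjusted p = 0.0381). The median was -0.46. *Tnc*, the matrix protein tenascin-C, was the 1 gene of the list that rose in each of the other sets, beside 4.09% of all genes in epithelium-rich spots and 0.796% in the stromal clusters. In epithelium-rich spots it stood at 3.80 and 1.13 CPM in CO and 21.2 and 31.2 CPM in DES (3.06 ± 0.57, edgeR adjusted p = 0.0402; list median 0.73, 5 tested). In the stromal clusters it stood at 5.37 and 5.42 CPM in CO and 104 and 28.9 CPM in DES (3.61 ± 0.65, edgeR adjusted p = 0.0387; list median 0.24, 4 tested). There it rested on 3, 5, 106 and 10 UMIs, and its log2 fold change was -0.23 in the spots chosen by stromal markers.

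Of 7 substrates and partners of PTPRZ1, all 7 were tested in whole sections and 1 fell, beside 2.63% of all genes. This was *Add2*, which codes for β-adducin of the membrane skeleton. It stood at 32.4 and 19.0 CPM in CO and 1.10 and 0.405 CPM in DES (-5.31 ± 0.54, edgeR adjusted p = 0.0212; list median -0.09). In epithelium-rich spots it stood at 56.7 and 29.1 CPM in CO and 2.49 and 0.601 CPM in DES (-5.06 ± 0.65, edgeR adjusted p = 0.0187; list median -0.46), where 2.27% of all genes fell. The single-cell libraries went the same way, with 53.8 CPM in CO and 7.10 CPM in DES epithelial cells, a ratio of 0.132 (0.124 to 0.141). In the stromal clusters 0 of 5 passed, and the median was 0.23. *Ctnnb1*, which codes for β-catenin, stood at 612 CPM in CO and 484 CPM in DES epithelial cells.

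Of 21 enzymes that make, sulfate or cut heparan and chondroitin sulfate, all 21 were tested in whole sections, where 1 rose and 1 fell, beside 2.67% and 2.63% of all genes (median -0.20). *Chst15*, a sulfotransferase of chondroitin sulfate, rose from 4.56 and 6.25 CPM in CO to 19.4 and 22.3 CPM in DES (1.74 ± 0.26, edgeR adjusted p = 0.0353). *Hpse*, the heparanase that cuts heparan sulfate, fell from 14.6 and 17.2 CPM to 5.37 and 7.29 CPM (-1.53 ± 0.27, edgeR adjusted p = 0.0496). In the stromal clusters *Hpse* also fell, from 39.4 and 35.8 CPM to 1.97 and 5.77 CPM, with 2 UMIs in each DES section (-3.63 ± 0.62, edgeR adjusted p = 0.0367; list median 0.14, 15 tested), where 0.673% of all genes fell. In epithelium-rich spots 0 of 16 passed, with a median of 0.09. Epithelial cells of the libraries held the integrin *Itga6* at 266 CPM in CO and 103 CPM in DES, and *Itgb1* at 202 and 80.7 CPM. They held *Agrn* at 38.4 CPM in CO and 58.0 CPM in DES, and *Hspg2*, the proteoglycan perlecan, at 10.4 and 13.5 CPM. *Hs3st1*, a heparan sulfate sulfotransferase, stood at 39.1 CPM in CO and 3.38 CPM in DES. *Sulf2*, a heparan sulfate sulfatase, stood at 35.9 and 18.5 CPM. *Hs6st1* was at 31.8 and 35.9 CPM, *Ext2* at 34.97 and 29.2 CPM, and *Pxn* of the partner list at 44.8 and 38.2 CPM.

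The calls on these lists rested on few sections and in part on the settings. In whole sections each of the 6 was lost without DES A or without DES B, when 14 and 3 genes in all passed, although the direction was kept. *Itgb3* was then at -2.03 and -2.06, *Sdc3* at -1.27 and -1.46, *Agrn* at 1.14 and 1.15, *Add2* at -6.15 and -4.80, *Hpse* at -1.31 and -1.82 and *Chst15* at 1.86 and 1.59 on the log2 scale. *Agrn* and *Hpse* were also lost with the section letter as a block, at 1.17 and -1.55. In epithelium-rich spots *Tnc* (3.34 and 2.73) and *Add2* (-6.30 and -4.41) were lost in the same way, and *Tnc* also without CO A, at 4.19, and in the richest 10% of spots, at 3.08. Both were lost without the filter on low counts, at 3.05 and -5.08. In the stromal clusters *Tnc* and *Hpse* were lost without CO B, at 3.65 and -3.66, and without DES A, at 2.41 and -2.62.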

How the data were processed

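Single-cell (10x Chromium 3′ v3) and Visium libraries were processed by the authors with Cell Ranger 3.0.1, Space Ranger 1.2.2 and bcl2fastq 2.20.0.422 on mm10, per the labels. The deposited values are raw UMI counts per gene and cell or spot, with the authors' cell types, epithelial clusters and spot clusters. The cells had been dissociated from uterine horns with trypsin. UMIs were summed per cell group or section and scaled to CPM, and shares of cells were taken after thinning to 3000 UMIs. Cells below that depth were left out of the shares, which kept 2562 of 2583 CO and 5201 of 5255 DES epithelial cells and 310 of 423 CO and 213 of 239 DES lymphocytes. Per the study's methods, the authors had removed potential doublets with scran, and no further caller was run on the deposited cells. Ratios between epithelial cells were ranked among genes at 50 CPM or more. Sections (2 against 2) were compared with edgeR 4.0.16 (TMM, filterByExpr, glmQLFTest, Benjamini-Hochberg at 0.05) in R 4.3.3. DESeq2 1.42.0, other size factors, no filter, leaving out each section, the section letter as a block and other choices of cells and spots were the alternatives. The model was tested on simulated data.

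The members and lists were chosen with earlier results of these data known. Named were the 6 members, list genes past the threshold, and in single cells the 2 highest genes of each list in each library's epithelium and any list gene at 50 CPM or more with a ratio over 3 or under 1/3. For each member the 3 genes with the highest Pearson's r were named. Muscle-rich and basal-rich spots, cells with more than 1 UMI each of *Krt14* and *Trp63*, the groups with basal clusters added and the removal of shared barcodes were chosen after seeing the data. Sections of a group are separate mice, but the pooling of the cell libraries leaves no replicate there. A marker of the cancer cells is not reported here.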

Additional observations from a re-analysis of the deposited data

Results flagged for a closer look

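*Ptn* went in opposite directions in different sets of spots of the same sections. As the log2 ratio of mean CPM, DES over CO, it was 2.73 in epithelium-rich spots and 2.37 in the stromal clusters, with both DES sections above both CO sections, and -1.33 in muscle-rich spots, with both DES sections below. The stromal direction did not hold in the spots chosen by stromal markers, with group means of 198 CPM in CO and 68.6 CPM in DES. Mesothelium-rich spots gave 233 and 99.0 CPM. The difference between these sets was not tested, and muscle markers within the muscle-rich spots were also lower in DES, as given above.

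Cells to which no cell type was assigned entered no comparison of cell types. These were 6611 cells in the DES library (median 2178 UMIs) and 20134 cells in the CO library (median 4137.5 UMIs). *Ptn*, *Ptprz1*, *Ncl* and *Sdc4* were at a higher level in DES, and *Mdk* and *Sdc1* at a lower one. *Ptn* stood at 235 CPM in DES and 75.3 CPM in CO. *Ptprz1* stood at 4.25 and 1.39 CPM, *Ncl* at 246 and 227 CPM and *Sdc4* at 369 and 334 CPM, while *Mdk* stood at 27.9 CPM in DES and 39.3 CPM in CO and *Sdc1* at 37.3 and 49.3 CPM.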

How the results depend on the processing

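The DES over CO ratio in epithelial cells changed side of 1 for *Sdc1* alone of the 6 genes, which went from 1.23 to 0.825 without basal cells. With means over cells in place of summed UMIs the ratios were 6.18 for *Ptn*, 0.846 for *Mdk*, 44.0 for *Ptprz1*, 1.14 for *Ncl*, 1.76 for *Sdc1* and 1.64 for *Sdc4*. Without the 20 most abundant genes they were 6.54, 0.685, 27.0, 1.203, 1.26 and 1.82, and without basal cells 6.52, 0.618, 2.56, 1.16, 0.825 and 1.72. Among the members and the list genes past the threshold in the stromal comparison, 4 changed sign when spots were chosen by stromal markers. *Ptn* went to -1.77 and *Tnc* to -0.23, which had passed the threshold. *Sdc1* went from -0.37 to 0.40 and *Ncl* from -0.16 to 0.27, which had not. The cause was not tested. *Sdc1* in stroma also lay at 1.02 without CO A and at 0.02 without DES B.

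The number of genes called depended strongly on the setting. In whole sections it was 747, and 1791 with DESeq2, 527 with the section letter as a replicate block, and 3 to 2819 with 1 section left out. In the stromal clusters it was 131, and 193 with DESeq2, 714 without the filter, 453 with the block, 318 with spots chosen by markers, and 40 to 357 with 1 section left out. In epithelium-rich spots it was 709, and 952 with DESeq2, 880 with the block, 1 to 1167 with 1 section left out, and 0 by edgeR without the filter, where 2929 genes had an unadjusted p under 0.05. With a section left out, the lone section of its group is assumed to vary like the others. Sections with the same letter share no batch that the labels name, although the A pair was deposited before the B pair. Their deviations correlated at -0.03, 0.09 and 0.01. The block raised the members called in epithelium-rich spots from 2 to 4, and all genes called there from 709 to 880. Of 153 alternative log2 fold changes of members, 138 stayed within the spread between sections, 14 moved further and 1, of a member past the threshold, changed sign. Members not past the threshold changed sign within these numbers too: with the reported fit counted, *Mdk* was negative in 2 of 9 and *Ncl* in 1 of 9 fits of whole sections, *Ncl* was positive in 2 of 10 and *Sdc1* in 3 of 10 fits of stroma, and *Ncl* was positive in 3 of 11 fits of epithelium-rich spots. Of 85 for pathway genes, 58 stayed past the threshold, 26 did not and 1 reversed. Shares of cells grew with depth, and 490 of 672 moved beyond their counting interval with thinning to 5000 UMIs or none.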
